A study of Mus musculus with 16 samples.

Results

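GABAergic cells of the newborn olfactory bulb (3 arrays) were compared directly with GABAergic cells of the newborn striatum (3 arrays), chosen by their titles from a series of 16 arrays. All animals were GAD67-eGFP mice on a C57Bl/6 background at postnatal day 1, whose cells are fluorescent where they express GAD67, the main enzyme of GABA synthesis. The 4 regions, which also include cortex and cerebellum, were taken from 6 mice, dissociated and sorted by fluorescence, and the labels call the 3 samples of a region biological replicates without saying whether different regions share animals. Each array set amplified cDNA of the sorted cells (Cy5) against amplified cDNA of a common reference of total brain from 4 mice of the same age (Cy3), and the dyes were not swapped. No group was treated, and both regions share the transgene, the sort and the reference. Values below are log2 ratios of sorted cells to reference, so that 0 is the level of the whole brain, and a difference is olfactory bulb minus striatum. In pooled cells, fewer cells of a type and less RNA per cell cannot be told apart.

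Both populations descend from the ventral forebrain. Interneurons of the olfactory bulb arise largely from the lateral ganglionic eminence, the septum and the subventricular zone, and reach the bulb as migrating neuroblasts that become granule and periglomerular cells. Most GABAergic cells of the striatum are spiny projection neurons, also born in the lateral ganglionic eminence, joined by interneurons from the medial and caudal ganglionic eminences.

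In the sorted-cell channel, the share of spots well above background was 80.1% to 86.5% on the olfactory bulb arrays and 88.1% to 91.4% on the striatum arrays, whose median signal was also higher (296 to 389 units against 179 to 268). Ratios of 2 arrays of 1 region correlated across genes (no independent replicates) at Pearson's r of 0.943 to 0.969, and those of an olfactory bulb with a striatum array at 0.829 to 0.893. Numbers on the slides fall into 6 consecutive runs. The olfactory bulb arrays lay on runs 1 and 5 and the striatum arrays on runs 2 and 4, so that slide run and region cannot be told apart, and a set of genes described at the end differed between these runs in both channels. The label of GABAergic cells held on all 6 arrays for its defining genes. Gad2, the second GABA-synthesizing enzyme, stood at 1.92, 1.86 and 1.90 in olfactory bulb and at 1.97, 1.70 and 1.65 in striatum. Gad1, which encodes GAD67, stood at 0.78 to 0.85 and at 0.78 to 1.06, and the vesicular GABA transporter Slc32a1 at 0.61 to 0.66 and at 0.55 to 0.72. The groups overlapped for all 3 genes, and none was called by ratio (differences -0.10 to 0.11). In the sorted-cell channel alone Slc32a1 was lower in olfactory bulb by -0.82 (adjusted p = 0.00349), with -0.84 in the reference channel. Slc17a7, the vesicular glutamate transporter of cortical projection neurons, was at means of -2.95 and -3.34. Neurod6, a transcription factor of the same neurons, was at -2.97 and -2.99. Among 14 glutamatergic neuron genes, Neurod6 had the lowest olfactory bulb mean and Slc17a7 the lowest striatum mean. Of the 14, 10 were below the reference in both regions and 2 above it in both, with highest means of 0.24 and 0.29.

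Of 27254 genes tested by limma, 7540 (27.7%) had an adjusted p under 0.05 and are referred to as called, 3895 (14.3%) of them higher and 3645 (13.4%) lower in olfactory bulb. At 2-fold or more, 290 genes were called (1.06%), of which 138 were higher (0.506%) and 152 lower (0.558%) in olfactory bulb. For 282 of the 290, the 3 arrays of each region did not overlap, against 43.7% of all genes tested. The median difference over all genes was 0.01. With slide run as a random block, 5405 genes were called, 285 of them at 2-fold or more. Of the 290 genes, 50 were called on opposite sides of the whole-brain reference in the 2 regions, 22 above it in olfactory bulb and below it in striatum, and 28 the other way round.

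**Figure D1:**
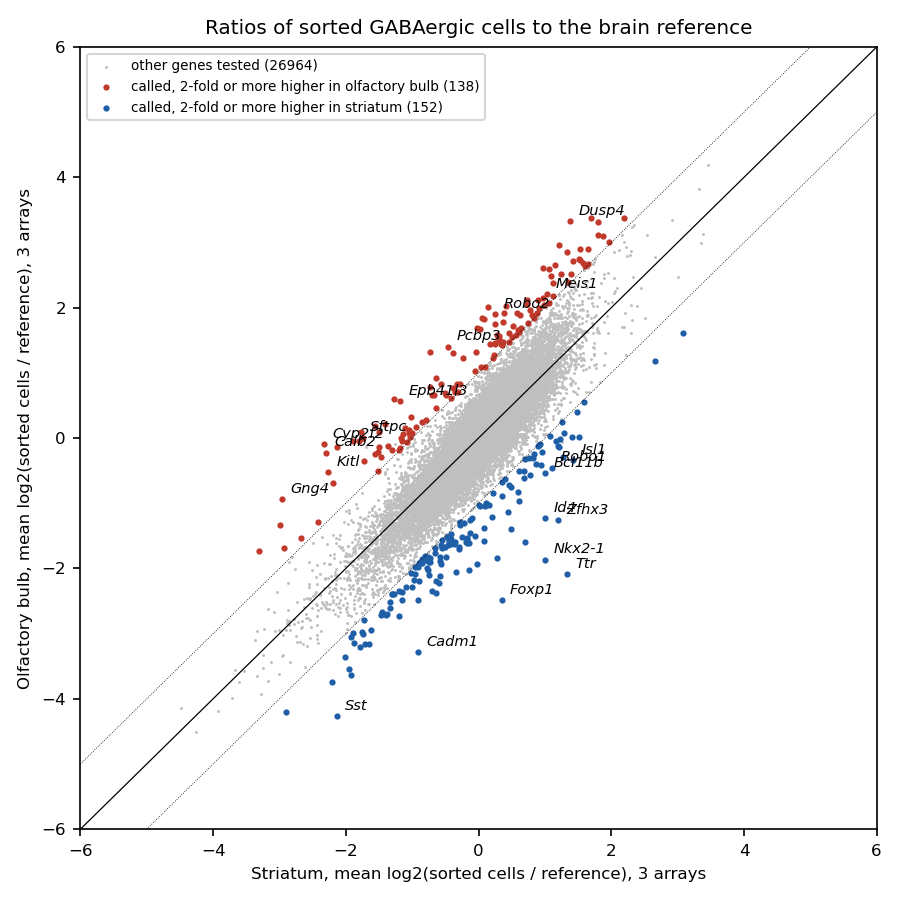
Mean log2 ratio of sorted cells to reference in striatum (horizontal) and olfactory bulb (vertical) for every gene tested, each a mean of 3 arrays. Red and blue points are the 138 and 152 genes called at 2-fold or more, dotted lines mark 2-fold, and Foxp1, Nkx2-1 and Ttr lie farthest below the diagonal among the genes labelled.

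The sorted-cell channel was then compared alone, with signals brought to the same distribution on all arrays, because a difference between ratios can come from either channel. Of the 290 genes, 261 moved the same way in the sorted-cell channel, 249 of these were also called there, and 209 differed at least 2-fold there. The remaining 29 moved the opposite way. The sorted-cell channel called 8709 genes (32%). Of the 7540 genes called by ratio, 4386 were among them, whichever way they moved. The sorted-cell count dropped to 5505 without olfactory bulb replicate 1, 5803 without striatum replicate 2 and 5186 without striatum replicate 3. Restricting the 290 genes to those whose sorted-cell difference had the same sign as the ratio and exceeded the reference difference, a restriction added after the values were seen, left 251, of which 101 were higher and 150 lower in olfactory bulb. The genes named next as most different passed the same restriction and the test in the sorted-cell channel.

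**Figure D2:**
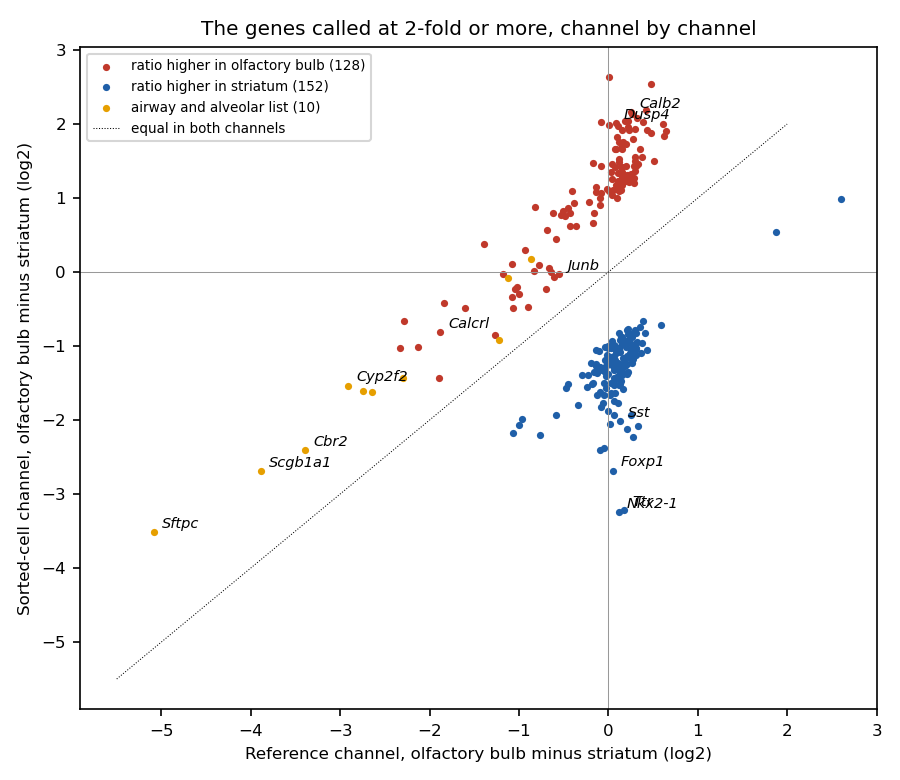
Olfactory bulb minus striatum in the reference channel (horizontal) and in the sorted-cell channel (vertical), in log2 units, for the 290 genes called at 2-fold or more. Most points lie near 0 on the horizontal axis, while genes of the airway and alveolar list, in orange, run from -0.87 for Scgb3a2 to -5.08 for Sftpc in the reference channel.

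Calb2, which encodes the calcium-binding protein calretinin, a marker of olfactory bulb granule and periglomerular cells, was the most different of the genes higher in olfactory bulb. It stood at -0.16, -0.30 and -0.20 on the olfactory bulb arrays and at -2.22, -2.19 and -2.47 on the striatum arrays. All 3 olfactory bulb arrays were near the whole-brain level and all 3 striatum arrays far below it, a difference of 2.07 ± 0.10 (SE, 3 arrays a group; limma adjusted p = 6.87e-11), or 4.2-fold, and its 3 probes differed by 1.63 to 2.07. Gng4, a G protein gamma subunit, stood at -0.83, -0.94 and -1.05 against -3.18, -2.92 and -2.77, 2.02 ± 0.13 higher. Dusp4, a phosphatase that inactivates MAP kinases, was far above the reference in olfactory bulb (3.33, 3.38 and 3.29) and less so in striatum (1.46, 1.37 and 1.30), 1.96 ± 0.12 higher. The groups were well apart for both genes. Kitl, the ligand of the Kit receptor, stood at -0.46, -0.48 and -0.63 against -2.20, -2.32 and -2.26, a difference of 1.74 ± 0.18. Pcbp3, an RNA-binding protein, was above the reference in olfactory bulb (1.40, 1.34 and 1.47) and below it in striatum (-0.32, -0.49 and -0.56). Epb41l3, a membrane-cytoskeleton linker, crossed the reference in the same way, from 0.49, 0.58 and 0.61 to -1.06, -1.23 and -1.24. Differences of 1.40 to 1.57 were seen for Sybu, Otud7a, Cyp2a5, Stambpl1, Tmem132e, Gas2l3 and the orphan receptor gene Gpr26. For Sybu, which encodes a kinesin adaptor, 1 of 3 probes was higher. Ntsr2, a neurotensin receptor, differed by 1.72 ± 0.23 by its brightest probe, with olfactory bulb replicate 3 at 0.76 against 2.10 and 2.22, and its other probe at -0.20.

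Ttr, the thyroid hormone carrier made by choroid plexus, was the most different of the genes higher in striatum, at -1.94, -1.99 and -2.34 in olfactory bulb and at 1.50, 0.85 and 1.64 in striatum. This difference of -3.42 ± 0.19 is 10.7-fold (adjusted p = 3.11e-10). It is returned to with the other non-neuronal genes. Nkx2-1, the homeodomain factor that specifies the medial ganglionic eminence, stood at -1.62, -2.13 and -1.85 against 1.03, 0.95 and 1.01, and Foxp1, a forkhead factor of striatal projection neurons, at -2.29, -2.53 and -2.63 against 0.42, 0.36 and 0.26. Both lay below the whole-brain level on all olfactory bulb arrays and above it on all striatum arrays, by -2.86 ± 0.14 for Nkx2-1 and -2.83 ± 0.09 for Foxp1 (adjusted p = 7.32e-11 and 4.15e-13). Nkx2-1 was well above background in the sorted-cell channel on only 1 of the 3 olfactory bulb arrays. The homeobox gene Zfhx3 stood at -1.23, -1.25 and -1.31 against 1.35, 1.21 and 1.03, and Id4, an inhibitor of basic helix-loop-helix factors, at -1.17, -1.33 and -1.19 against 1.15, 1.01 and 0.83. Every olfactory bulb array was below and every striatum array above the reference for both genes. The adhesion molecule Cadm1 was below the reference in both regions and 5.18-fold lower in olfactory bulb, at -3.20, -3.36 and -3.30 against -0.84, -0.96 and -0.94, with all 3 of its probes lower. Sulf1, a sulfatase of heparan sulfate, differed by -2.12 ± 0.20, Thbs3, a thrombospondin, by -1.88 ± 0.10 and Nyap1, an adaptor of PI3 kinase, by -1.73 ± 0.09. Scube1, a secreted signalling protein, differed by -1.91 ± 0.08 by its brightest probe, while 1 of its 3 probes was higher by 0.02.

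**Figure D3:**
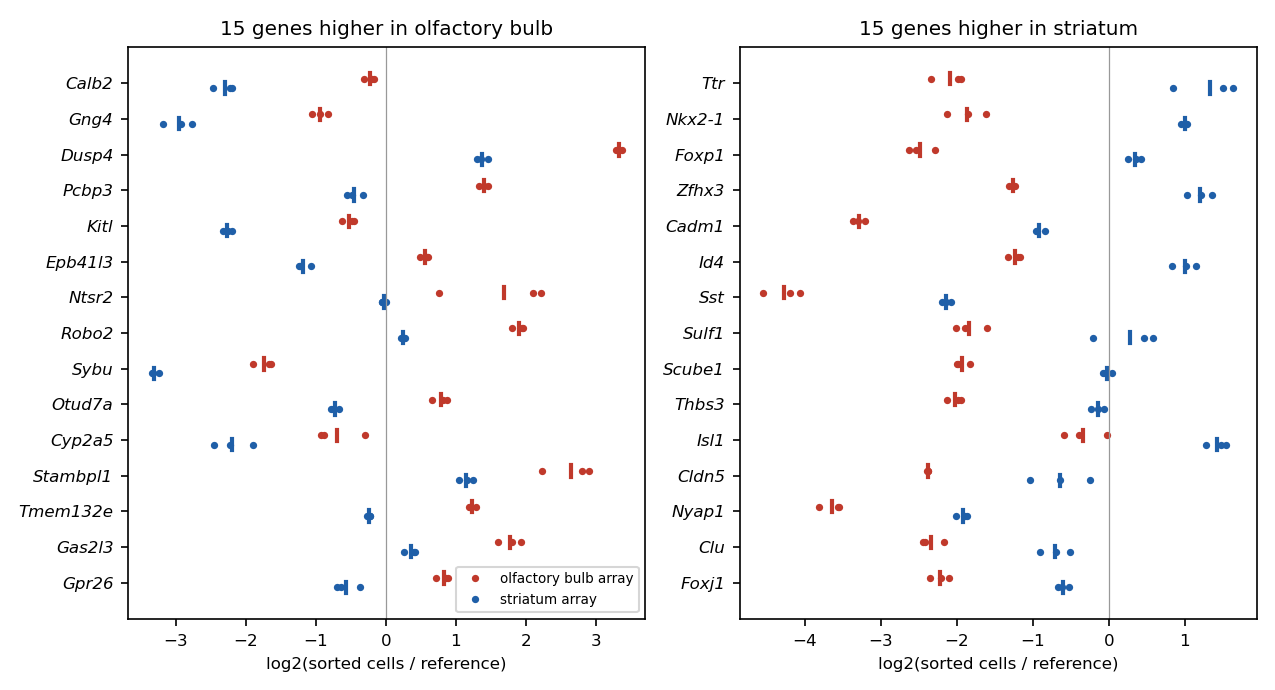
Log2 ratio to reference on each of the 3 olfactory bulb (red) and 3 striatum (blue) arrays for the 15 genes most different in each direction, with vertical bars at group means. The 2 colours do not overlap for any gene because only such genes were chosen, and the nearest approach is that of olfactory bulb replicate 3 for Ntsr2, at 0.76.

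Members of 36 gene lists were next counted, beside the 14.3% of all genes called higher and 13.4% called lower. Transcription factors of striatal projection neurons were mostly lower in olfactory bulb: of 16 measured, 10 were called lower and 2 higher, with a median difference of -0.94. Beside Foxp1 and Zfhx3, Isl1, a LIM homeodomain factor of the direct-pathway lineage and of cholinergic neurons, stood at -0.59, -0.40 and -0.02 against 1.48, 1.27 and 1.54 (-1.77 ± 0.12). Isl1 was well above background on 2 of the 3 olfactory bulb arrays. Bcl11b, also called Ctip2, a zinc finger factor needed for projection neuron differentiation, stood at -0.58, -0.67 and -0.37 against 1.10, 0.95 and 0.98. Foxo1 (-1.31 ± 0.14) and Ebf1 (-1.10 ± 0.17) completed the 6 that were lower by 2-fold or more, and Zfp503 (-0.99), Six3 (-0.96), Rxrg (-0.91) and Rarb (-0.85) followed. Ikzf2 and Mef2c were called higher in olfactory bulb, by 0.43 and 0.46 (other probes of Ikzf2 reached -0.74, and the mean of its probes was -0.038 with an adjusted p of 0.775), while Foxp2 (-0.27), Ikzf1, Nr4a1 and Sox8 did not pass the test.

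Signalling genes by which mature spiny neurons are known showed less of a difference, with 6 of 23 called lower, 3 higher and a median of -0.18. Penk, the enkephalin precursor, stood at -2.12, -2.29 and -2.12 in olfactory bulb and at -1.19, -1.27 and -1.17 in striatum, a difference of -0.97 ± 0.11. Pde10a, a striatal phosphodiesterase, differed by -0.76 ± 0.10. Both were below the whole-brain level on every array of both regions. The D2 receptor gene Drd2, its indirect-pathway partner Adora2a, and Tac1, the substance P precursor, did not pass the test in the ratios (differences -0.18, -0.19 and 0.00). In the sorted-cell channel alone, Drd2 and Adora2a were called lower in olfactory bulb, by -0.57 and -0.51, and with the mean of all probes by -0.46 and -0.81. The D1 receptor gene Drd1 was higher in olfactory bulb by 0.40 ± 0.14 (adjusted p = 0.0351), a call lost with slide run as a random block (adjusted p = 0.12) and without any 1 array other than striatum replicate 1 (adjusted p = 0.0574 to 0.175).

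Transcription factors of olfactory bulb interneurons leaned the other way, with 11 of 17 called higher, 2 lower and a median of 0.56. Meis1, a TALE homeodomain factor, stood at 2.30, 2.25 and 2.07 against 1.17, 1.02 and 0.91 (1.17 ± 0.09), and its partner Pbx3 at 1.72, 1.67 and 1.66 against 0.79, 0.65 and 0.47 (1.04 ± 0.10). Etv1, also called Er81, an ETS factor of granule and dopaminergic interneurons, stood at 2.66, 2.67 and 2.60 against 1.67, 1.69 and 1.44. These 3 genes exceeded the reference on all 6 arrays, and more so in olfactory bulb. Pax6, needed for dopaminergic periglomerular cells, was higher by 0.90 ± 0.09, Sall1 by 0.77 ± 0.09 and Tshz1, which acts in the radial migration of bulb neuroblasts, by 0.75 ± 0.08. Sp8, a zinc finger factor of neuroblasts for the bulb, was already high in striatum (2.88 to 2.99) and higher by 0.42 ± 0.12 in olfactory bulb (3.33 to 3.36), a call lost under scaling between arrays (adjusted p = 0.49). Nr2f1 and Nr2f2, the COUP-TF factors, were lower in olfactory bulb by -1.17 ± 0.12 and -1.04 ± 0.10. Among 14 effector genes of bulb interneurons, Calb2, Gng4 and Kitl were called higher and 10 did not pass the test, with a median of -0.06. Th, the rate-limiting enzyme of dopamine synthesis, which marks a class of periglomerular cells, was called lower in olfactory bulb, at -1.29, -1.45 and -1.04 against -0.61, -0.59 and -0.60. Calb1 (-0.26), Ddc (0.00) and Synpr (0.12) did not pass the test by ratio, while in the sorted-cell channel Calb1 (-0.58) and Ddc (-0.69) were called lower. Across 19 alternative settings (other processing or other sets of arrays), Calb1 was called lower in 2, the sorted-cell channel included. Its difference ran from -1.60 to -0.11.

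Genes of the FGF and ERK pathway, in which receptors drive ETS factors and both are limited by feedback inhibitors, were called higher in 6 and lower in 2 of 14 cases, and 6 did not pass the test. The receptor Fgfr2 stood at 1.48, 1.42 and 1.42 in olfactory bulb and at 0.20, 0.06 and 0.27 in striatum (1.26 ± 0.09, higher by all 3 probes), while Fgfr1 and Fgfr3 did not pass the test. The ETS factors Etv1 (1.04), Etv5 (1.01) and Etv4 (0.34) and the phosphatases Dusp4 (1.96) and Dusp6 (0.76) were higher. In the sorted-cell channel alone, Dusp6 (0.51, adjusted p = 0.0694) and Etv4 (0.32, adjusted p = 0.159) did not pass the test. The call of Etv4 was lost in 5 of 19 alternative settings, the sorted-cell channel included. Of the Sprouty genes, feedback inhibitors of receptor signalling, 2 were lower, with Spry1 at -0.59, -0.76 and -0.59 against 0.17, 0.07 and 0.09, and Spry2 at -0.43, -0.68 and -0.44 against 0.18, 0.18 and 0.30. Spry4 was not well above background in either region.

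The pair of Slit receptors Robo1 and Robo2, which guide migrating neurons and axons, differed in opposite directions. Robo2 stood at 1.95, 1.96 and 1.80 in olfactory bulb and at 0.26, 0.28 and 0.22 in striatum, 1.65 ± 0.10 higher, with all 6 probes higher (0.14 to 1.65). Robo1 stood at -0.38, -0.47 and -0.50 against 1.22, 1.12 and 0.99, -1.56 ± 0.08. Neither gene had overlapping groups. Among 20 genes of neuroblast migration, 7 were higher and 5 lower. Prokr2, a receptor that guides neuroblasts to the bulb, was higher by 0.89 ± 0.13, the reelin adaptor Dab1 by 0.85 ± 0.11 and doublecortin, Dcx, by 0.83 ± 0.11, at 1.01, 1.01 and 0.97 against 0.35, 0.17 and -0.01. Sox4, a factor of immature neurons, was lower by -1.21 ± 0.14. Of 15 Slit, Robo and netrin genes, 7 were lower and 2 higher, among them the netrin receptors Unc5a (-1.21 ± 0.14) and Unc5c (0.79 ± 0.15). Of 19 ephrins and Eph receptors, 7 were lower and 2 higher. The ligand Efna5 stood at -1.41, -1.60 and -1.52 against 0.01, -0.08 and -0.07, and the receptor Epha4 at -0.26, -0.17 and -0.18 against 1.10, 0.89 and 0.90, whereas the ligand Efnb2 was higher by 0.90 ± 0.13. Epha7 was lower by -1.13 with its brightest probe and higher by 0.33 with the other. Semaphorins, plexins and neuropilins showed 3 higher and 5 lower of 17, with none at 2-fold. Among 25 adhesion genes (8 higher, 7 lower), Chl1 was lower by -1.27 ± 0.11 and Ncam2, an adhesion molecule of the olfactory system, higher by 1.09 ± 0.15, with 1 of its 3 probes at -0.06.

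Genes of medial ganglionic eminence interneurons were lower in olfactory bulb in 7 of 14 cases and higher in 2. Beside Nkx2-1, its target Lhx6 stood at -0.51, -0.60 and -0.61 against 0.86, 0.87 and 0.61 (-1.35 ± 0.09), and Lhx8, a factor of cholinergic neurons, at -0.95, -1.46 and -1.25 against 0.28, 0.17 and 0.14. Sst, the somatostatin precursor, was far below the reference in both regions, at -4.06, -4.19 and -4.55 in olfactory bulb and at -2.08, -2.14 and -2.19 in striatum (-2.13 ± 0.12, or 4.37-fold). Nxph1, a neurexin ligand, was higher by 1.01 ± 0.12 and Satb1 by 0.46 ± 0.10. Of 11 caudal ganglionic eminence genes, 7 were lower, including Reln (-0.72), Prox1 (-0.46) and Htr3a (-0.43). The call of Prox1 was lost in 2 of 19 alternative settings, 1 of them the sorted-cell channel (-0.24, adjusted p = 0.232). That of Htr3a was lost in 9 of 19. These included the sorted-cell channel (adjusted p = 0.0542) and slide run as a block (adjusted p = 0.0862). The 2 higher genes were Sp8 and Adarb2 (0.89 ± 0.13 by 1 of 2 probes). Of 11 cholinergic neuron genes, 3 were lower and none higher. Among 6 genes of GABA synthesis and transport, only the astrocytic GABA transporter Slc6a11 was called (-1.0 ± 0.13).

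Neuropeptide genes were lower in olfactory bulb in 5 of 14 cases and higher in none. Sst, Npy, Pnoc, Penk and Nts made up the 5, at -2.13, -1.12, -1.03, -0.97 and -0.71. Npy had 2 usable olfactory bulb arrays, at -1.85 and -2.31, against -0.86, -0.93 and -1.09 in striatum. To show the sequence in front of genes that moved together, the 150 bases before a listed transcription start are given. Of the 5 genes, 3 were found in the table of promoters used (build GRCm38.p6), with 1 start each. For Sst, the gene interval used to name probes (chr16:23889573-23891342) extends beyond that start, so that its window lies inside the interval. They are read 5′ to 3′ on the gene's strand, with TGACGTCA, the palindrome bound by CREB, in capitals where either strand held it.
Sst, chr16:23890845-23890994, minus strand: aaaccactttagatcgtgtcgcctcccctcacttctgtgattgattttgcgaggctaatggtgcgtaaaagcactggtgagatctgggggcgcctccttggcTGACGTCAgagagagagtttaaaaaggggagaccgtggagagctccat
Npy, chr6:49822560-49822709, plus strand: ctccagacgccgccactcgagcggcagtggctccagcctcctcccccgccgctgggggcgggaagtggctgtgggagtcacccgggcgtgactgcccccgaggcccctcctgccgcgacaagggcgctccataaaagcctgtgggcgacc
Nts, chr10:102490419-102490568, minus strand: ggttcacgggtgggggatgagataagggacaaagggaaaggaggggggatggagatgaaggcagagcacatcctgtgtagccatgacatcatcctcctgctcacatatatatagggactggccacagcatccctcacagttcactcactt
The motif began 48 bases before the start of Sst and was not in the other 2 windows; of 32851 windows of the same length in the table, 1.36% held it. The homeodomain core TAATTA and the TATA box letters TATAAA, also searched on both strands, were in none of the 3 windows and in 2.73% and 7.57% of all. A match is a description of the letters and not of binding.

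Forebrain GABAergic transcription factors were high in both regions, with 8 of 10 above the reference in both. Dlx1, a homeobox factor of forebrain GABAergic precursors, stood at 3.84, 3.79 and 3.81 in olfactory bulb and at 3.45, 3.31 and 3.22 in striatum (0.49 ± 0.10), a call lost under scaling between arrays (adjusted p = 0.495) and under median centring (adjusted p = 0.0616). Dlx6 (0.71 ± 0.12) and its antisense partner Dlx6os1 (0.74 ± 0.10) were also higher, and probes of overlapping transcripts may share signal. Dlx2 was lower by -0.51 ± 0.13, a call lost in the sorted-cell channel (adjusted p = 0.546) and in the scanner's own ratios (adjusted p = 0.165). Gsx1, a homeobox factor of ganglionic eminence progenitors, was lower by -1.56 ± 0.13, at -1.90, -2.39 and -2.29 against -0.68, -0.67 and -0.55. Of 22 proliferation genes, 13 were lower and 2 higher, with a median of -0.47 in the ratios and -0.19 in the sorted-cell channel, where 6 were called lower. Birc5, which acts in mitosis, was the only one at 2-fold (-1.35 ± 0.17), while Mki67 (0.09, and 0.77 and called in the sorted-cell channel), Pcna (-0.08) and Ccnb2 (-0.02) did not pass the test. In the retinoic acid pathway, 6 of 14 were lower and 1 higher. Rara, a retinoic acid receptor, stood at -0.78, -1.07 and -0.84 against 0.40, 0.33 and 0.35 (-1.25 ± 0.12), and the binding protein Crabp1 at -1.81, -1.72 and -1.20 against -0.66, -0.55 and -0.71. The receptors Rxrg and Rarb, given above with the striatal factors, were also lower, and the binding protein Crabp2 was the 1 gene higher. AMPA receptor subunits Gria1 (0.63 ± 0.11) and Gria2 (0.64 ± 0.11) were higher and the kainate subunit Grik4 (-0.90 ± 0.13) lower, among 15 ionotropic glutamate receptor subunits with 4 called in each direction.

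**Figure D4:**
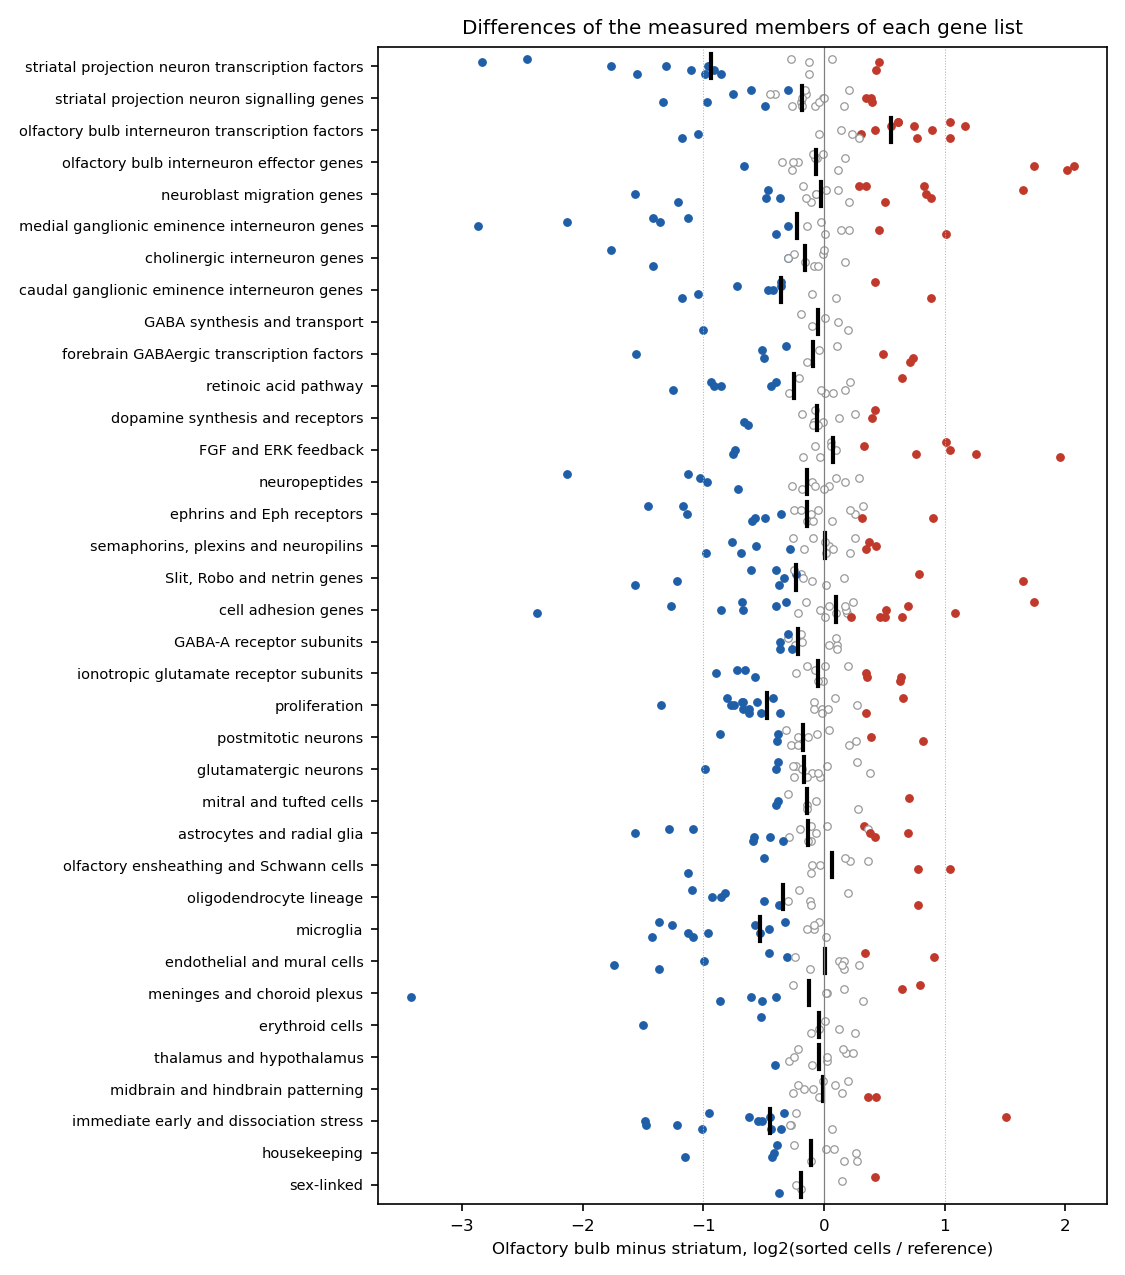
Olfactory bulb minus striatum (log2) for each measured member of the 36 gene lists. Filled points are called (red higher, blue lower in olfactory bulb), open points did not pass the test, black bars are list medians and dotted lines mark 2-fold; the medians run from -0.94 for striatal projection neuron transcription factors to 0.56 for olfactory bulb interneuron transcription factors.

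Genes of other cell types also differed between the sorted samples. Of 15 microglial genes, 10 were lower in olfactory bulb and none higher, with a median of -0.53, and 5 were lower by 2-fold or more. Tyrobp, an adaptor of microglial receptors, stood at -1.76, -1.65 and -1.59 in olfactory bulb and at -0.34, -0.33 and -0.23 in striatum (-1.37 ± 0.08). Laptm5 (-1.43), Fcer1g (-1.26), Ctss (-1.13) and Csf1r (-1.08) were the others. The summed sorted-cell signal of the 15 genes ran from 5830 to 6650 units in olfactory bulb and from 9330 to 9490 in striatum. Of 14 endothelial and mural genes, 5 were lower and 2 higher (median 0.01). The tight junction gene Cldn5 stood at -2.38, -2.39 and -2.38 against -0.64, -1.03 and -0.25, and the transporter Slco1c1 differed by -1.36 ± 0.17. The summed signal of the endothelial list was 6220 to 7170 units against 8990 to 11300. Of 7 erythroid genes, 2 were lower and 5 did not pass the test (median -0.04), and 4 were lower in the sorted-cell channel. The globin Hba-a1 was lower by -1.50 ± 0.16, and the summed signal of the list was 11200 to 11900 units against 28200 to 32200.

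Of 19 genes of astrocytes and radial glia, 7 were lower and 4 higher (median -0.13), with summed signals of 101000 to 107000 units against 90300 to 110000, which overlap. Apoe (-1.56 ± 0.12), the Notch target Hes1 (-1.28 ± 0.12) and vimentin, Vim (-1.08 ± 0.10), were lower by over 2-fold. Of 12 oligodendrocyte lineage genes, 6 were lower, with Pdgfra, the receptor of their precursors, at -1.09 ± 0.08, and 1 was higher. In a list of 16 choroid plexus and ependymal genes drawn up after Ttr had been seen, 13 were measured and 9 were lower. They included Enpp2 (-1.58 ± 0.15), the ciliary regulator Foxj1 (-1.62 ± 0.11), Clu (-1.64 ± 0.14), Rsph1 (-0.93 ± 0.14) and the folate receptor Folr1 (-0.86 ± 0.12), and all 13 were lower in the sorted-cell channel. Aqp1, a water channel, was higher by ratio (1.31 ± 0.27), at -1.44 in the sorted-cell and -1.89 in the reference channel. Frzb, a Wnt antagonist of olfactory ensheathing cells, was higher in olfactory bulb by 1.05 ± 0.17, and the list of ensheathing and Schwann cell genes otherwise showed 1 higher and 2 lower of 10. Of 17 immediate early and dissociation stress genes, 12 were lower in olfactory bulb. Fos stood at 1.37, 1.78 and 1.69 against 3.22, 2.88 and 3.16, and Jun at 1.20, 1.24 and 1.09 against 2.74, 2.54 and 2.72. Both exceeded the reference on all 6 arrays. Zfp36 (-1.21 ± 0.11) and Ier2 (-1.01 ± 0.10) followed, all 17 were lower in the sorted-cell channel, and their summed signal was 73200 to 76200 units against 85600 to 90400. Junb was higher in the ratio by 1.51 ± 0.33, with its sorted-cell signal saturated on 5 of 6 arrays and a sorted-cell difference of -0.03. The part of these cells and of cell handling in the neuronal differences above was not tested.

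Other regions put these differences in place. Among the 138 genes higher in olfactory bulb by 2-fold, the cortex mean was nearer to striatum for 81 and nearer to olfactory bulb for 57, and among the 152 lower genes it was nearer to striatum for 77. For Calb2, olfactory bulb exceeded cortex by 2.13 (adjusted p = 7.02e-11), while striatum and cortex differed by 0.06 (adjusted p = 0.708), and for Dusp4 the corresponding values were 1.83 (7.95e-09) and -0.13 (0.509). Foxp1 was lower in olfactory bulb than in cortex by -2.37 and higher in striatum than in cortex by 0.46. Robo1, Bcl11b and Sst likewise lay in between in cortex, at 0.48, 0.33 and -3.37. For Cldn5 and Tyrobp, olfactory bulb and cortex differed by -0.33 (adjusted p = 0.116) and -0.43 (0.00129), and striatum exceeded cortex by 1.41 and 0.94. These comparisons share the olfactory bulb or striatum arrays. All 3 cortex arrays lay on run 5 with olfactory bulb replicate 3, and all 3 cerebellum arrays on run 4 with striatum replicates 2 and 3. Nearness of regions and a shared slide run therefore cannot be told apart. Of the 138 genes, 101 had a difference carried mainly by the sorted-cell channel, and the others include airway genes described below, such as Sftpc. Direct comparisons of the other pairs of regions called 96 genes at 2-fold between olfactory bulb and cortex, 102 between cortex and striatum, 360 between cortex and cerebellum, 385 between striatum and cerebellum and 652 between olfactory bulb and cerebellum.

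The genes with the largest ratio differences in favour of olfactory bulb before the channels were examined included a set that lay in the reference channel. Of the 15 highest by ratio, Cyp2f2 (2.23), Sec14l3 (1.98), Sftpa1 (1.87), Selenbp1 (1.85), Sftpc (1.77), Inmt (1.75), Calcrl (1.75) and Wfdc2 (1.75) were lower in olfactory bulb in the sorted-cell channel and lower still in the reference channel. Sec14l3 was not well above background in the sorted-cell channel on any olfactory bulb array, so that its ratio there is not a measured level; its sorted-cell signal was at least 1.67-fold higher in striatum. Several are known for expression in the lung, such as Sftpc, surfactant protein C. In the reference channel, Sftpc had log2 signals of 6.26, 6.62 and 6.73 on the olfactory bulb arrays and 11.52, 11.85 and 11.50 on the striatum arrays, although the reference is labelled as the same whole-brain cDNA throughout. In the sorted-cell channel it was at 7.03, 7.21 and 7.49 against 10.35, 10.87 and 11.06. Across all 16 arrays, Sftpc in the reference channel was at 11.18 to 11.85 on the 8 arrays of slide runs 2 and 4 (striatum, cerebellum and whole brain replicates 2 and 3) and at 6.26 to 7.24 on the other 8. A list of 16 airway and alveolar genes drawn up after this was seen had 13 called higher and none lower by ratio, with median differences of 1.15 in the ratio, -0.69 in the sorted-cell channel and -1.17 in the reference channel, and the 2 sets of 8 arrays did not overlap for 9 of the 16 in the reference channel. How many of all genes kept these 2 sets apart was not counted. The 9 of 16 therefore has no share of all genes beside it and is only a description of the list. Sdk2 (1.74 by ratio) was at 0.37 in the sorted-cell and -1.39 in the reference channel, and Fgl1 (1.79) was saturated in the sorted-cell channel on all 3 striatum arrays and 1 olfactory bulb array. Other probes of these 2 genes gave values down to -0.17 for Sdk2 and -0.65 for Fgl1.

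**Figure D5:**
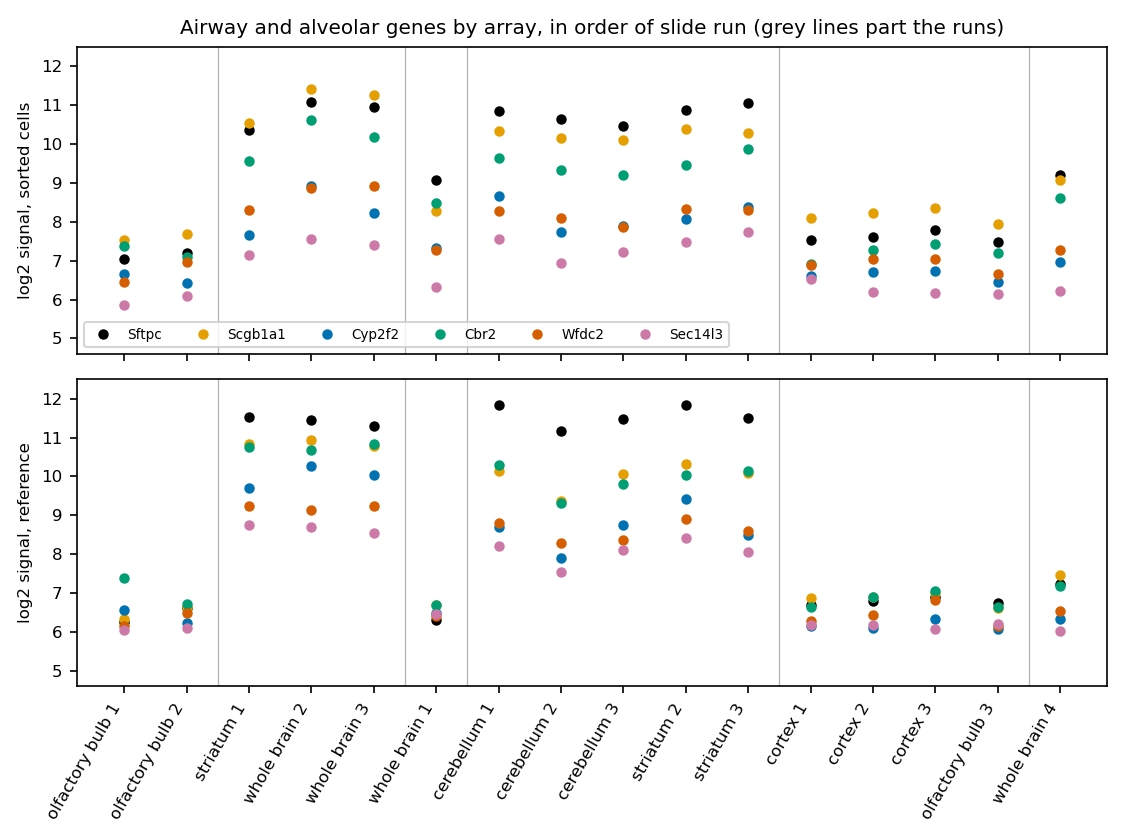
Log2 signal of 6 airway and alveolar genes on each of the 16 arrays in the sorted-cell (top) and reference (bottom) channels, ordered by slide run with grey lines between runs. Sftpc, in black, is above 10.3 on all arrays of runs 2 and 4 in both channels and below 9.2 on all others.

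Whole brain had arrays both on run 2 (replicates 2 and 3) and on other runs (replicates 1 and 4), which gives a difference between runs within a group. Striatum was also split, with replicate 1 on run 2, and olfactory bulb lay on runs 1 and 5. Their differences between runs are not given here. No whole-brain array lay on runs 1 and 5 of the olfactory bulb arrays or on run 4, which held striatum replicates 2 and 3. For Sftpc the whole-brain difference between runs was 1.89 in the sorted-cell channel and 4.62 in the reference channel. For Aqp1 it was 1.57 in the sorted-cell channel, and over the 16 striatal transcription factors it ran from -1.03, for Ikzf1, to 0.25. In the same channel it was 0.17 for Foxp1, 0.12 for Nkx2-1, 0.16 for Cadm1, -0.26 for Calb2, -0.22 for Gng4, 0.44 for Dusp4, -0.0050 for Robo2, 0.17 for Robo1, 0.13 for Tyrobp, -0.04 for Cldn5, -0.25 for Ttr and 0.33 for Fos.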

How the data were processed

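Each of the 16 two-colour Agilent arrays carried sorted-cell cDNA in Cy5 and total-brain reference cDNA in Cy3, after global PCR amplification, per the labels' protocols. The deposited files hold the intensity of each spot as read by Feature Extraction 8.1.1.1, per the submitters' processing notes, and log10 ratios made by that software, per the file headers. The deposited value table was the same log10 ratio, to within 0.005. Because the labels call the Cy3 channel red, the dye names were used to set which way a ratio runs.

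Intensities were corrected with normexp (offset 50) and normalised by loess within arrays in limma 3.58.1 (R 4.3.3), control spots left out. The 41174 probes were named from a RefSeq table (21445 by accession, 5431 by symbol, 4636 by synonym) or kept the array's name (9662). Genes needed a sorted-cell signal well above background on 3 arrays or a reference signal on 8, which left 27254 of 28655, each by its brightest probe. All 16 arrays entered 1 fit of 5 group means (lmFit, eBayes), and p-values were adjusted by Benjamini-Hochberg over all genes, with 0.05 as threshold. The number of arrays limits the precision. The p-values set a difference of means against the spread within groups, pooled over all 16 arrays, and cannot part region from slide run. In simulated data, 97% of genes changed by 1 log2 unit and 46% of those changed by 0.5 were called. The simulated noise was independent between arrays, whereas the real arrays had a correlation of 0.247 within slide runs. Replicate numbers were not used as pairs in the main fit, as the labels do not say whether regions share animals.

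The members and gene lists were chosen with earlier results of these data known. Named genes are the 15 with the largest difference in each direction among those called whose arrays do not overlap, and members of the lists. The ranking among genes carried mainly by the sorted-cell channel, with which the report opens its account of single genes, was added after the values were seen. Where another probe of a gene had the opposite sign, this is stated. Some members counted in the lists are not reported here by name.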

Additional observations from a re-analysis of the deposited data

Results flagged for a closer look

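For 22 of the genes named above, the olfactory bulb mean and the striatum mean each differed from the whole-brain reference by limma, on opposite sides of it. Olfactory bulb was the higher region for Pcbp3 (1.86), Epb41l3 (1.74), Otud7a (1.52), Tmem132e (1.46), Gpr26 (1.40) and Ncam2 (1.09). Striatum was the higher region for Ttr (-3.42), Nkx2-1 (-2.86), Foxp1 (-2.83), Zfhx3 (-2.46), Id4 (-2.23), Isl1 (-1.77), Enpp2 (-1.58), Robo1 (-1.56) and Bcl11b (-1.55), and also for Lhx6 (-1.35), Rara (-1.25), Epha4 (-1.17), Zfp503 (-0.99), Rxrg (-0.91), Folr1 (-0.86) and Spry2 (-0.74). All of these differences were called by limma.

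The reference channel, which holds the same labelled material on all arrays, was lower on the olfactory bulb than on the striatum arrays for all 16 airway and alveolar genes listed, and 8 of them were called there at 2-fold or more. These 8 differences were -5.08 for Sftpc, -3.89 for Scgb1a1, -3.40 for Cbr2, -2.75 for Sftpa1, -2.64 for Wfdc2, -2.30 for Sec14l3, -1.22 for Sftpd and -1.12 for Aqp5. Of all 27254 genes tested, the reference channel called 1060, of which 188 at 2-fold or more. Groups of 3 arrays are too small for a search for outlying samples.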

How the results depend on the processing

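Of 155 genes followed, 127 had no alternative that lost a call or was counted as turning the direction; some of these gained a call (Drd2 and Adora2a, for example), and some uncalled ones, such as Gad1, Gad2 and Tac1, lay on both sides of 0. At 2-fold or more, 1774 genes were called with the scanner's own ratios and 933 in the sorted-cell channel alone, against 290. Median centring called 4109 genes higher and 2489 lower (62.3% higher, against 51.7%). Leaving out 1 array at a time, the sorted-cell channel called 5186 to 8945 genes, against 8709. In the sorted-cell channel alone, signs turned for Aqp1 -1.44, Aqp5 -0.077, Nr4a1 -0.82, Calcrl -0.81, Cbr2 -2.40, Cyp2f2 -1.54, Inmt -0.42, Junb -0.026, Scgb1a1 -2.69, Sec14l3 -1.43, Selenbp1 -1.01, Sftpa1 -1.61, Sftpc -3.52, Sftpd -0.92, Slc32a1 -0.82 and Wfdc2 -1.62, and with the mean of all probes for Ikzf2 (-0.038). The cause was not tested, beyond the reference values given above. With replicate number as a block on the 12 regional arrays, 8311 genes were called, against 8143 on the same arrays without the block. Deviations from the group means correlated at -0.0064 to 0.18 between olfactory bulb and striatum arrays of the same number. For arrays of different numbers the correlations were -0.159 to 0.0825. These few values cannot decide whether the numbers pair samples. The restriction to differences carried mainly by the sorted-cell channel was chosen after seeing the data. Lower signal on the olfactory bulb arrays limits values of dim genes such as Nkx2-1 there.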

Other observations

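The lists not yet described are given here beside the 27.7% of all genes called. Of 12 GABA-A receptor subunits, 4 were lower in olfactory bulb and none higher. Of 12 genes of dopamine synthesis and reception, 2 were higher and 2 lower, and of 14 postmitotic neuron genes 2 were higher and 3 lower. Glutamatergic neuron genes were lower in 3 of 14 cases, among them Emx1 (-0.98), and mitral and tufted cell genes in 2 of 8, with 1 higher. Of 12 genes of meninges and choroid plexus, 5 were lower and 2 higher. Thalamic and hypothalamic genes had 1 of 10 lower, patterning genes of midbrain and hindbrain 2 of 11 higher, housekeeping genes 4 of 11 lower, and sex-linked genes 1 of 5 in each direction.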
